A study of Mus musculus with 24 samples.

Results

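Smooth muscle contractile genes encode the actin, myosin, tropomyosin, calponin and transgelin proteins of cells that shorten under load, and 10 of them were chosen by symbol for description in mouse mammary carcinoma cells. The 10 genes were Acta2, Actg2, Tagln, Tagln2, Cnn1, Cnn2, Myl9, Myh9, Tpm1 and Tpm2, out of 55471 genes counted in the first sequencing batch. Of the 13915 genes listed for both batches, 8 were among the 10, and Tagln and Cnn1 were listed for the first batch alone.

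In smooth muscle, filaments of the actins Acta2 and Actg2 are pulled by myosin, whose activity rises when its regulatory light chain is phosphorylated and falls when a phosphatase removes the phosphate. Tropomyosin lies along the actin filament, and calponin and transgelin bind it. Many of these genes carry a binding site for the serum response factor SRF, the CArG box, and Acta2 is also a familiar marker of myofibroblasts and of the myoepithelial layer of the mammary gland.

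The cells were derivatives of EO771, a mammary carcinoma line from C57BL/6 mice, and polyadenylated RNA was sequenced in 24 libraries. X2 cells carried the empty retroviral vector PLNCX2 and CCR7 cells carried the same vector with the mouse cDNA of the chemokine receptor Ccr7, each with tdTomato and after selection in G418. X2-PDPN and CCR7-PDPN cells were sorted from these for surface podoplanin (PDPN) that had appeared without transduction, and the CCR7 libraries came from the podoplanin-negative side of the sort. The paper calls the X2 control podoplanin-negative as well. The labels call the derivatives subclones, whereas the study's methods describe sorted populations without selection of clones, and each derivative was 1 population. Sequencing ran in batches, the first with X2, CCR7 and CCR7-PDPN cells and the second with CCR7-PDPN, X2 and X2-PDPN cells. Each derivative had 4 technical replicates in a batch, so every p-value below measures technical spread alone. Library totals ran from 22275468 to 33395418 counts in batch 1 and from 22788542 to 35721027 counts in batch 2. Replicate 1 of CCR7 lay farthest from its group over all tested genes, at a root mean square distance of 0.29 on the log2 scale, where the other 23 libraries lay between 0.20 and 0.24, and calls among the contractile genes that turned on it are also given without it.

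The transcripts that define the derivatives followed the labels. Ccr7 had a mean of 5327 TPM (counts scaled by exonic length and library) in CCR7, 5660 TPM in CCR7-PDPN of batch 1 and 5911 TPM in CCR7-PDPN of batch 2, against 1.25 TPM in X2-PDPN. Pdpn had a mean of 52.0 TPM in CCR7-PDPN of batch 1, 49.9 TPM in CCR7-PDPN of batch 2 and 52.9 TPM in X2-PDPN, against 0.855 TPM in CCR7 and 0.330 TPM in X2 of batch 2.

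The levels of the 10 genes spanned a wide range within the same cells. Tagln2, a transgelin of many non-muscle cells, was the most abundant of them in every group, with a mean of 736 ± 5.85 TPM (SD, n = 4) in X2 of batch 1. It was followed there by the non-muscle myosin heavy chain Myh9 (262 ± 4.34 TPM), the calponin Cnn2 (205 ± 7.67 TPM), Tpm1 (187 ± 5.30 TPM), Tpm2 (107 ± 3.03 TPM) and Acta2 (58.4 ± 2.60 TPM). These neighbours in the order did not overlap between libraries. The low end held Actg2 (3.82 ± 0.276 TPM), the regulatory light chain Myl9 (2.00 ± 0.574 TPM), Tagln (0.420 ± 0.197 TPM) and Cnn1 (0.128 TPM), and the libraries of Tagln and Cnn1 overlapped. The genes that non-muscle cells also use, Tagln2, Myh9, Tpm1, Tpm2 and Cnn2, made up 95.9% of the summed level of the 10 genes in X2 of batch 1. In X2-PDPN this share was 92.1% of the genes listed, and in CCR7-PDPN of batch 2 it was 98.0%. The order changed in a few places: Tpm1 stood above Cnn2 everywhere but in X2, the libraries of Myh9 and Tpm1 overlapped in CCR7 and in CCR7-PDPN of both batches, Acta2 reached the libraries of Tpm2 in X2-PDPN, and Myl9 (2.43 TPM) stood above Actg2 (1.52 TPM) in CCR7, where their libraries overlapped.

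Most of each protein family's transcript came from members not specific to muscle. Acta2 was 0.944% of the summed TPM of the actins in X2 of batch 1 and Actg2 was 0.0619%, while the cytoplasmic actin Actb took 93.6%. The Acta2 share was 1.70% in X2-PDPN and 0.418% in CCR7-PDPN of batch 2. Tagln2 held 99.9% of the transgelins in X2 of batch 1, and Myh9 held 99.9% of the non-sarcomeric myosin heavy chains. Myl9 was 1.27% of the regulatory light chains in X2 of batch 1, and the remainder was Myl12a and Myl12b. In batch 2 the Myl9 share was 1.11% in X2 and 3.36% in X2-PDPN. Tpm1 and Tpm2 together with Tpm3 and Tpm4 summed to 830.5 TPM in X2 of batch 1, of which Tpm1 was 22.6% and Tpm2 was 12.9%. Counts per gene pool the muscle and the non-muscle isoforms of Tpm1 and of Tpm2, which start from different promoters and splice differently.

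Acta2, the smooth muscle alpha actin, separated the derivatives most clearly. Its gene (ENSMUSG00000035783) lies on chromosome 19 from 34241090 to 34255590 of GRCm38, on the minus strand. In batch 1 the X2 libraries had 54.9, 58.3, 59.2 and 61.1 TPM, the CCR7 libraries 45.3, 46.5, 54.1 and 54.9 TPM and the CCR7-PDPN libraries 23.4, 22.9, 25.4 and 24.6 TPM. In batch 2 the X2 libraries had 57.7, 55.2, 57.1 and 56.8 TPM, the X2-PDPN libraries 105, 101, 101 and 102 TPM and the CCR7-PDPN libraries 24.1, 23.1, 25.2 and 25.1 TPM. The X2-PDPN libraries were thus the highest and the CCR7-PDPN libraries the lowest, and no pair of groups overlapped within a batch, although the highest CCR7 library reached within rounding of the lowest X2 library. Podoplanin-sorted cells without the receptor had 1.80-fold more Acta2 than X2 (log2 fold change 0.85 ± 0.04 SE, adjusted p = 1.27e-22, edgeR), where p-values were adjusted over all genes tested by the method of Benjamini and Hochberg. Podoplanin-sorted cells with the receptor had 2.04-fold less than CCR7 cells (log2 fold change −1.03 ± 0.06 SE, adjusted p = 7.03e-11, edgeR), and the fold change was −0.99 on the log2 scale without CCR7 replicate 3 and likewise −0.99 without CCR7 replicate 4, inside a threshold of 1. The difference between these differences was −1.87 ± 0.07 on the log2 scale (adjusted p = 5.54e-22, edgeR). CCR7-PDPN was 4.12-fold below X2-PDPN (log2 fold change −2.04 ± 0.04 SE, adjusted p = 1.39e-35, edgeR). Against X2 it was lower by about the same amount in each batch, with log2 fold changes of −1.25 ± 0.06 and −1.20 ± 0.05. CCR7 cells were 1.17-fold below X2 (log2 fold change −0.22 ± 0.06 SE, adjusted p = 0.00309, edgeR). In bulk RNA, fewer cells with a transcript and less of it per cell cannot be told apart.

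Actg2, the gamma actin of enteric and other visceral smooth muscle, moved in a pattern of its own. The gene (ENSMUSG00000059430) lies on chromosome 6 from 83512905 to 83536265. In batch 1 the X2 libraries had 3.77, 4.01, 4.04 and 3.44 TPM, the CCR7 libraries 1.04, 1.60, 1.23 and 2.19 TPM and the CCR7-PDPN libraries 3.76, 3.89, 3.77 and 3.81 TPM. In batch 2 the X2 libraries had 3.36, 3.06, 3.55 and 4.02 TPM, the X2-PDPN libraries 22.2, 23.3, 24.7 and 25.9 TPM and the CCR7-PDPN libraries 3.23, 3.81, 2.87 and 3.89 TPM. All 4 X2-PDPN libraries stood far above the rest, all 4 CCR7 libraries stood below the rest, and X2 overlapped with CCR7-PDPN in each batch. The rise from X2 to X2-PDPN was 6.79-fold (log2 fold change 2.76 ± 0.11 SE, adjusted p = 1.25e-24, edgeR). CCR7 was 2.60-fold below X2 (log2 fold change −1.38 ± 0.20 SE, adjusted p = 5.79e-06, edgeR), on 14 to 20 counts per CCR7 library. CCR7-PDPN was 2.64-fold above CCR7 (log2 fold change 1.40 ± 0.20 SE, adjusted p = 8.89e-06, edgeR) and 6.81-fold below X2-PDPN (log2 fold change −2.77 ± 0.11 SE, adjusted p = 4.64e-25, edgeR). Actg2 therefore rose with podoplanin on both backgrounds, and by less with the receptor, the difference between the differences being −1.35 ± 0.24 (adjusted p = 1.36e-05, edgeR). Between CCR7-PDPN and X2 the adjusted p was 0.919 in batch 1 and 0.984 in batch 2 (edgeR), and the sign of the log2 fold change turned when single libraries were left out: it was −0.03 without X2 replicate 4 in batch 1, and in batch 2 it was 0.07 without X2 replicate 4, 0.02 without CCR7-PDPN replicate 1 and 0.09 without CCR7-PDPN replicate 3.

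**Figure D1:**
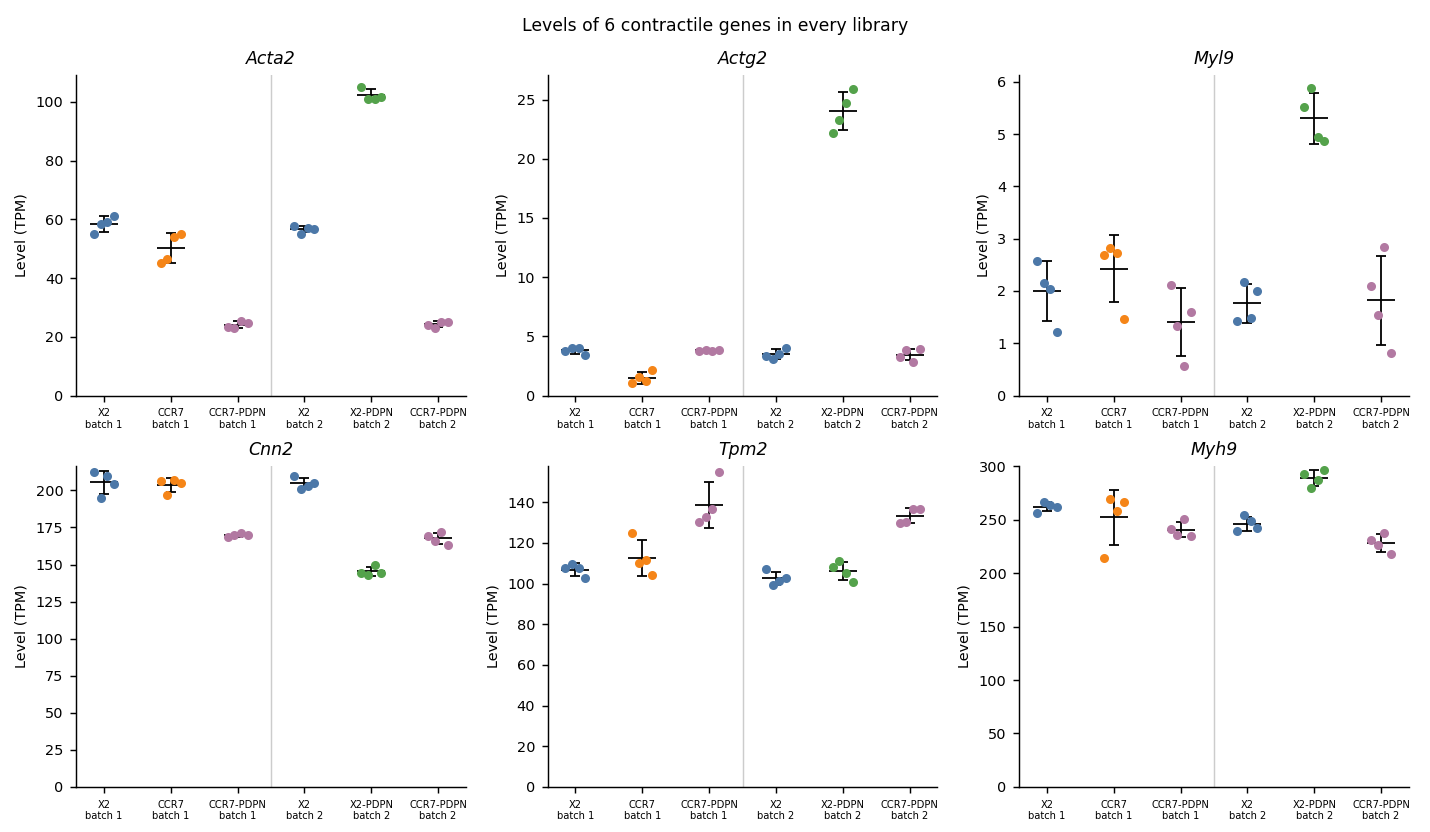
Level in TPM (y axis, from 0) of 6 contractile genes in each of the 24 libraries, by derivative and batch (x axis). Points are libraries, horizontal bars are means and error bars are SD of 4 technical replicates. The X2-PDPN libraries are the highest for Acta2 (101 to 105 TPM), Actg2 (22.2 to 25.9 TPM) and Myl9 (4.87 to 5.87 TPM), and the lowest for Cnn2 (143 to 149.98 TPM).

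The myosin subunits Myl9 and Myh9 were both highest in X2-PDPN. Myl9 (ENSMUSG00000067818, chromosome 2, 156775420 to 156781658), whose protein is the regulatory light chain of smooth muscle myosin, had 2.58, 2.15, 2.05 and 1.21 TPM in X2, 2.69, 2.82, 2.72 and 1.47 TPM in CCR7 and 2.12, 1.33, 0.561 and 1.60 TPM in CCR7-PDPN of batch 1. In batch 2 it had 1.42, 2.16, 1.48 and 2.01 TPM in X2, 5.52, 5.87, 4.94 and 4.87 TPM in X2-PDPN and 2.10, 1.53, 2.83 and 0.811 TPM in CCR7-PDPN. Only the X2-PDPN libraries stood clear of the other groups of their batch, and the counts behind these levels were as low as 5 in a library. X2-PDPN was 2.98-fold above X2 (log2 fold change 1.58 ± 0.23 SE, adjusted p = 1.89e-07, edgeR), and CCR7-PDPN was 2.85-fold below X2-PDPN (log2 fold change −1.51 ± 0.23 SE, adjusted p = 3.44e-07, edgeR). CCR7-PDPN against CCR7 gave a log2 fold change of −0.78 ± 0.32 (adjusted p = 0.053, edgeR). Leaving out 1 library brought this adjusted p (edgeR) to 0.0491 without X2 replicate 4, 0.0278 without CCR7 replicate 4 and 0.0238 without CCR7-PDPN replicate 1, where the log2 fold change was −1.04, and the highest value without a library was 0.172. Between CCR7-PDPN and X2 of batch 2 the log2 fold change of 0.07 turned to −0.02 without X2 replicate 1 or replicate 3 and to −0.26 without CCR7-PDPN replicate 3. The difference between the podoplanin differences was −2.35 ± 0.40 (adjusted p = 1.08e-05, edgeR).

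Myh9 (ENSMUSG00000022443, chromosome 15, 77760587 to 77842175), the heavy chain of non-muscle myosin IIA, had 256, 266, 264 and 262 TPM in X2, 215, 269, 259 and 267 TPM in CCR7 and 242, 236, 251 and 235 TPM in CCR7-PDPN of batch 1. In batch 2 it had 239, 254, 249 and 242 TPM in X2, 293, 280.0, 288 and 296 TPM in X2-PDPN and 231, 226, 238 and 218 TPM in CCR7-PDPN. The 3 groups of batch 2 did not overlap, and in batch 1 a single CCR7 library, replicate 1, lay far below its group. X2-PDPN was 1.17-fold above X2 (log2 fold change 0.23 ± 0.03 SE, adjusted p = 4.81e-10, edgeR) and 1.24-fold above CCR7-PDPN, for which the log2 fold change was −0.32 ± 0.03 (adjusted p = 3.11e-14, edgeR). Without CCR7 replicate 1, CCR7-PDPN was below CCR7 at a log2 fold change of −0.11 (adjusted p = 0.000861, edgeR) and below X2 of batch 1 at −0.10 (adjusted p = 0.000617, edgeR). With it, the adjusted p (edgeR) was 0.592 and 0.124, at log2 fold changes of −0.04 and −0.10, and the highest with any 1 library left out was 0.928 and 0.254. The log2 fold change of CCR7 against X2 was −0.06 and became 0.0094 without that library.

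Cnn2, a calponin found in many cell types, went the opposite way from Acta2 and Actg2 in podoplanin-sorted cells without the receptor. The gene (ENSMUSG00000004665) lies on chromosome 10 from 79988584 to 79996062. In batch 1 it had 213, 195, 209 and 204 TPM in X2, 206, 197, 207 and 205 TPM in CCR7 and 168, 170.1, 171 and 169.8 TPM in CCR7-PDPN. In batch 2 it had 209.9, 201, 203 and 205 TPM in X2, 144, 143, 149.98 and 144 TPM in X2-PDPN and 169, 166, 172 and 163 TPM in CCR7-PDPN. X2-PDPN was lowest and CCR7-PDPN lay between it and X2 without overlap, while X2 and CCR7 overlapped. X2-PDPN was 1.41-fold below X2 (log2 fold change −0.50 ± 0.03 SE, adjusted p = 2.79e-19, edgeR). CCR7-PDPN was 1.18-fold below CCR7 (log2 fold change −0.24 ± 0.03 SE, adjusted p = 1.11e-05, edgeR), and the difference between these differences was 0.27 ± 0.04 (adjusted p = 2.45e-06, edgeR). The relative Cnn3 was at 313 TPM in X2 and 326 TPM in X2-PDPN, so that the Cnn2 share of the calponins went from 39.5% in X2 to 30.9% in X2-PDPN.

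Tagln2 (ENSMUSG00000026547, chromosome 1, 172500047 to 172507380) moved by small amounts. Its lowest group mean was 661 TPM, in CCR7, and its highest was 766 TPM, in X2-PDPN. CCR7 was 1.12-fold below X2 (log2 fold change −0.16 ± 0.03 SE, adjusted p = 9.55e-05, edgeR) and CCR7-PDPN was 1.12-fold below X2-PDPN (log2 fold change −0.16 ± 0.03 SE, adjusted p = 2.56e-06, edgeR), both without overlap. CCR7-PDPN against CCR7 had an adjusted p of 0.0849 (edgeR), which was 0.00721 without CCR7 replicate 1, at a log2 fold change of 0.09, and at most 0.231 without another library. CCR7-PDPN against X2 of batch 2 had an adjusted p of 0.026 (edgeR), which was 0.0739 without X2 replicate 1 and 0.172 without CCR7-PDPN replicate 3. Tagln (ENSMUSG00000032085) had 2 to 11 counts and Cnn1 (ENSMUSG00000001349) had 0 to 4 counts in the libraries of batch 1, under the filter on low counts. Tagln is an early and Cnn1 a later marker of smooth muscle differentiation, and differences in them were not detectable at this depth.

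The tropomyosins Tpm1 and Tpm2, whose proteins stabilise actin filaments, separated the derivatives along different lines. Tpm2 (ENSMUSG00000028464, chromosome 4, 43514711 to 43523765) had 108, 109.7, 108 and 103 TPM in X2, 125, 110.01, 112 and 104 TPM in CCR7 and 130.4, 133, 137 and 155 TPM in CCR7-PDPN of batch 1. In batch 2 it had 107, 99.4, 101 and 103 TPM in X2, 108, 111, 105 and 101 TPM in X2-PDPN and 130.1, 130.3, 137 and 136 TPM in CCR7-PDPN. The CCR7-PDPN libraries were the highest in both batches, without overlap, and the other groups overlapped with each other. CCR7-PDPN was 1.25-fold above CCR7 (log2 fold change 0.32 ± 0.06 SE, adjusted p = 0.000759, edgeR) and 1.28-fold above X2-PDPN (log2 fold change 0.35 ± 0.03 SE, adjusted p = 2.04e-12, edgeR). Its log2 fold change against X2 was 0.40 ± 0.06 in batch 1 and 0.40 ± 0.03 in batch 2.

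Tpm1 (ENSMUSG00000032366, chromosome 9, 67022590 to 67049406) was lowest in X2 and alike in the other derivatives. Its libraries ran from 182 to 192 TPM in X2, from 214 to 247 TPM in CCR7 and from 224 to 245 TPM in CCR7-PDPN of batch 1. In batch 2 they ran from 179 to 187 TPM in X2, from 222 to 227 TPM in X2-PDPN and from 215 to 225 TPM in CCR7-PDPN. X2 overlapped with no other group of its batch, and the other groups of each batch overlapped. CCR7 was 1.20-fold above X2 (log2 fold change 0.26 ± 0.05 SE, adjusted p = 0.00011, edgeR) and X2-PDPN was 1.22-fold above X2 (log2 fold change 0.28 ± 0.03 SE, adjusted p = 7.41e-13, edgeR). CCR7-PDPN against CCR7 had an adjusted p of 0.264 (edgeR), which was 0.00308 without CCR7 replicate 1, at a log2 fold change of 0.12, and at most 0.61 without another library. The sign for CCR7-PDPN against X2-PDPN turned from 0.0083 to −0.01 on the log2 scale with upper-quartile factors, and to −0.0026 without CCR7-PDPN replicate 4 and −0.0017 without X2-PDPN replicate 3.

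**Figure D2:**
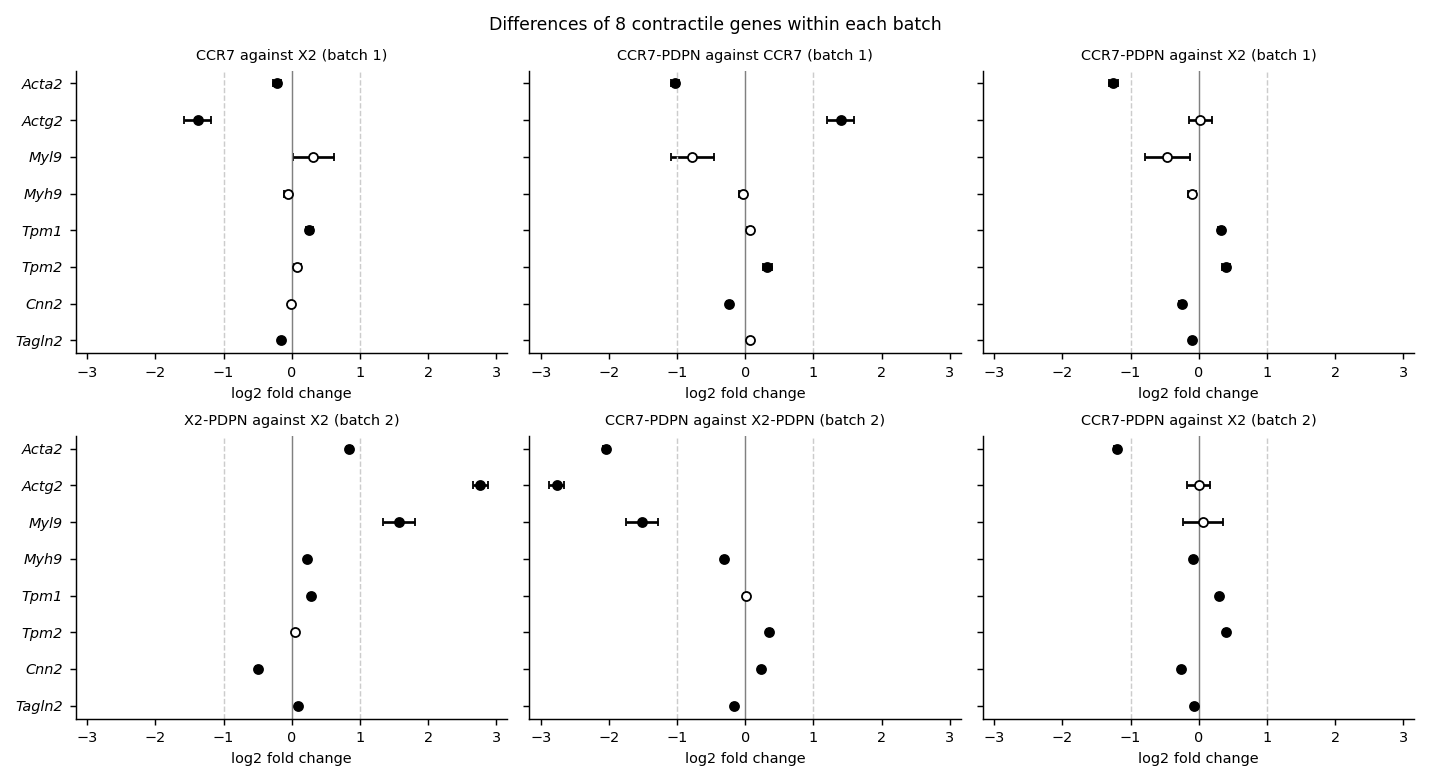
Log2 fold change (x axis) of 8 contractile genes (y axis) in the 6 comparisons within a batch. Points are edgeR estimates, error bars are SE, filled points have an adjusted p under 0.05, and dashed lines mark log2 fold changes of −1 and 1. Actg2 has the largest values among these genes, 2.76 in X2-PDPN against X2 and −2.77 in CCR7-PDPN against X2-PDPN.

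Counted over the 8 genes that passed the filter on low counts, podoplanin-sorted cells without the receptor exceeded X2 for 6 genes and fell below it for 1 (adjusted p under 0.05, edgeR). Over all 13314 genes tested there, 28.2% were higher and 28.5% lower. With a log2 fold change above 1 as well, 2 of the 8 were higher, Actg2 and Myl9, where 3.51% of all genes were higher and 1.55% lower. In podoplanin-sorted cells with the receptor, 2 of the 8 were higher than in CCR7 cells and 2 lower (adjusted p under 0.05, edgeR), against 20.9% and 20.7% of the 13261 genes tested. Without CCR7 replicate 1 these counts were 4 higher and 3 lower, with Tagln2, Tpm1 and Myh9 added, and 3 were also lower, with Myl9 added, without X2 replicate 4, CCR7 replicate 4 or CCR7-PDPN replicate 1. Past the fold threshold 1 was higher, Actg2, where 0.664% of all genes were, and 1 was lower, Acta2, where 2.6% were. The number lower became 2 with Myl9 when CCR7-PDPN replicate 1 was left out, and Acta2 no longer counted when CCR7 replicate 3 or replicate 4 was. The difference between the podoplanin differences was below 0 for 5 genes and above 0 for 2 at an adjusted p under 0.05, against 20.5% and 20.3% of 13690 genes. It was past the fold threshold for 3 genes, Acta2, Actg2 and Myl9, each below 0, where 4.48% of all genes were below and 0.964% above.

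The remaining comparisons were between cells with and without the receptor, and CCR7-PDPN against X2 differs in podoplanin sorting as well. Between CCR7 and X2, 1 of the 8 was higher and 3 lower (adjusted p under 0.05, edgeR), against 24% and 25.2% of all genes. Actg2 was the 1 gene lower past the fold threshold, where 3.3% of all genes were higher and 3.18% lower. Between CCR7-PDPN and X2-PDPN, 2 were higher and 5 lower, against 31.2% and 32% of all genes, and 3 were lower past the fold threshold, Acta2, Actg2 and Myl9, where 2.76% of all genes were higher and 6.4% lower. CCR7-PDPN against X2 gave 2 higher and 3 lower in batch 1, against 30.3% and 30.6%, and 2 higher and 4 lower in batch 2, against 32% and 32.8%. The number lower in batch 1 was 4 without CCR7 replicate 1, with no filter or with the compared groups alone. In batch 2 it was 3 without X2 replicate 1, without CCR7-PDPN replicate 3 or with all 24 libraries in 1 fit. Acta2 was the 1 gene lower past the fold threshold for CCR7-PDPN against X2 in each batch, where 4.09% of all genes were higher and 5.36% lower in batch 1, and 3.96% higher and 5.67% lower in batch 2. These comparisons share libraries with one another. Among the 8 genes the middle of the log2 fold changes (median) was 0.25 in X2-PDPN against X2, 0.01 in CCR7-PDPN against CCR7, −0.04 in CCR7 against X2 and −0.24 in CCR7-PDPN against X2-PDPN, and the median over all genes tested was 0.0012, −0.0033, 0.0033 and 0.00014 in the same order.

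X2 and CCR7-PDPN were sequenced in both batches, and their mean log2 CPM (counts scaled by library size) can be set side by side. The largest difference among the 8 genes was 0.33, for Myl9 in CCR7-PDPN, inside its pooled SD of 0.67. Myh9 was lower in batch 2 by −0.09 in X2 and −0.08 in CCR7-PDPN, beyond its pooled SD of 0.03 and 0.04. Smaller shifts, also lower in batch 2 and beyond the pooled SD, were those of Tagln2 in X2 (−0.035, SD 0.030), Tpm1 in CCR7-PDPN (−0.060, SD 0.052) and Tpm2 in X2 (−0.055, SD 0.046).

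Part of the Tpm1 and Myh9 differences was shared with the genes around them. In CCR7 against X2, the 67 other tested genes within 5 Mb of Tpm1 had a median log2 fold change of 0.47, above the 0.26 of Tpm1 itself. For CCR7-PDPN against X2 the median of these neighbours was 0.48 in batch 1, where Tpm1 had 0.32, and 0.47 in batch 2, where Tpm1 had 0.29. Set against its neighbours, Tpm1 was thus lower in these 3 comparisons. In X2-PDPN against X2 the neighbours had a median of 0.18 and Tpm1 had 0.28, which left 0.10 above them, and in CCR7-PDPN against X2-PDPN the neighbours had 0.28 and Tpm1 had 0.0083. In X2-PDPN against X2, the 185 other tested genes within 5 Mb of Myh9 had a median of 0.22, next to 0.23 for Myh9. Around Acta2, Actg2 and Myl9 the medians in that comparison were −0.11, −0.0043 and 0.09, so that the values of these genes stood apart from those of their neighbourhood. Whether copies of these stretches differ between the derivatives was not tested.

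**Figure D3:**
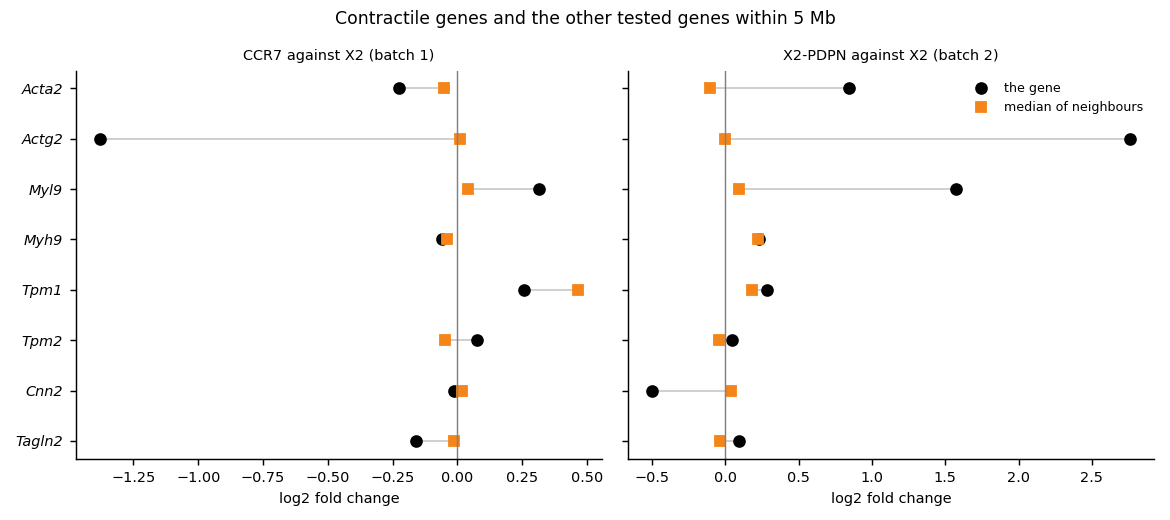
Log2 fold change (x axis) of 8 contractile genes (black circles, y axis) and the median log2 fold change of the other tested genes within 5 Mb on either side (orange squares), for CCR7 against X2 and X2-PDPN against X2. The x axes of the panels differ in range. The neighbours of Tpm1 have a median of 0.47 in the first panel, and the neighbours of Myh9 a median of 0.22 in the second.

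Close relatives of the 10 genes changed by less than the fold threshold between the podoplanin-sorted cells and their controls. Of 13 relatives, 10 were tested in X2-PDPN against X2, where 3 passed an adjusted p of 0.05 (edgeR) as higher and 5 as lower, next to 28.2% and 28.5% of all genes. In CCR7-PDPN against CCR7, 9 were tested, of which 4 were higher and 4 lower, next to 20.9% and 20.7%. The cytoplasmic actins fell in X2-PDPN, unlike Acta2 and Actg2. Actg1 was at 332 TPM in X2 and 258 TPM in X2-PDPN (log2 fold change −0.37 ± 0.03 SE, adjusted p = 1.65e-15, edgeR), and Actb at 6666 TPM and 5635 TPM (log2 fold change −0.25 ± 0.07 SE, adjusted p = 0.0138, edgeR). Actb was instead higher in CCR7-PDPN than in CCR7, by 0.16 on the log2 scale. The light chain gene Myl12b rose by 0.25 there and by 0.21 in X2-PDPN. Tpm4, a non-muscle tropomyosin, was at 307 TPM in X2 and 252 TPM in X2-PDPN (log2 fold change −0.29 ± 0.03 SE, adjusted p = 2.14e-12, edgeR), while Tpm3 was at 218 TPM and 251 TPM (log2 fold change 0.20 ± 0.03 SE, adjusted p = 7.11e-09, edgeR). With Tpm1 and Tpm2 the tropomyosins summed to 811 TPM in X2 and 834 TPM in X2-PDPN.

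Of 17 proteins of mature smooth muscle, 11 were tested in each of these comparisons. In X2-PDPN against X2, 5 were higher and 3 lower (adjusted p under 0.05, edgeR), with a median log2 fold change of 0.15, next to 28.2% and 28.5% of all genes. In CCR7-PDPN against CCR7, 4 were higher and 3 lower, with a median of −0.01, next to 20.9% and 20.7%. In CCR7-PDPN against X2-PDPN, 2 were higher and 7 lower, with a median of −0.35, next to 31.2% and 32%. The difference between the podoplanin differences was above 0 for 1 and below 0 for 6 of 12 tested, with a median of −0.34, next to 20.3% and 20.5%. The genes named here were, above a minimum level, the 3 with the largest called changes in each podoplanin comparison, and these were rises. Past the fold threshold, 2 members of the list were higher and 1 lower in X2-PDPN against X2. The lower one was under that minimum level. Mylk, the myosin light chain kinase that phosphorylates the product of Myl9, had a mean of 1.25 TPM in X2, 6.52 TPM in CCR7 and 15.2 TPM in CCR7-PDPN of batch 1, and of 1.21 TPM in X2, 3.87 TPM in X2-PDPN and 14.98 TPM in CCR7-PDPN of batch 2. It was thus highest where Acta2 was lowest, and it rose with podoplanin on both backgrounds: by 1.25 ± 0.06 on the log2 scale from CCR7 (adjusted p = 7.2e-13, edgeR) and by 1.66 ± 0.08 from X2 (adjusted p = 4.64e-22, edgeR). Smtn, the actin-binding protein smoothelin, had 204 TPM in CCR7 and 314 TPM in CCR7-PDPN (log2 fold change 0.65 ± 0.03 SE, adjusted p = 1.63e-12, edgeR), and 185 TPM in X2 and 179.6 TPM in X2-PDPN (adjusted p = 0.111, edgeR). The muscle intermediate filament gene Des rose in both comparisons, from 7.17 TPM to 9.52 TPM and from 6.27 TPM to 8.78 TPM. Synm, another intermediate filament gene, was at 0.690 TPM in X2 and 1.72 TPM in X2-PDPN (log2 fold change 1.31 ± 0.13 SE, adjusted p = 2.52e-11, edgeR).

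Of 16 genes for SRF, its myocardin-family partners and their regulators, 14 were tested. In X2-PDPN against X2, 10 were higher and 1 lower (adjusted p under 0.05, edgeR), with a median log2 fold change of 0.13, next to 28.2% and 28.5% of all genes. In CCR7-PDPN against CCR7, 7 were higher and 3 lower, with a median of 0.09, next to 20.9% and 20.7%. In CCR7-PDPN against X2-PDPN, 1 was higher and 7 were lower, with a median of −0.13, next to 31.2% and 32%. The change of largest size in X2-PDPN was a fall, that of the transcription factor Klf5, from 65.2 TPM in X2 to 47.1 TPM (log2 fold change −0.48 ± 0.04 SE, adjusted p = 1.93e-15, edgeR). Elk3, which competes for SRF, was at 92.0 TPM in X2 and 124 TPM in X2-PDPN (log2 fold change 0.43 ± 0.03 SE, adjusted p = 4.35e-17, edgeR), and Tead3 rose by 0.41. In CCR7-PDPN against CCR7, Klf4 fell (log2 fold change −0.43 ± 0.09 SE, adjusted p = 0.00112, edgeR), Tead1 had a log2 fold change of −0.25 and Tead3 one of 0.31.

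Immediate-early and matricellular genes with sites for SRF or TEAD factors were mostly lower in cells with the receptor than without it. Of 14 genes 12 were tested, and all 12 were lower in CCR7 than in X2 (adjusted p under 0.05, edgeR), with a median log2 fold change of −0.71, next to 25.2% of all genes. All 12 were lower in CCR7-PDPN than in X2-PDPN, with a median of −0.97, next to 32%. In CCR7-PDPN against X2, 9 were lower in batch 1 and 10 in batch 2, with medians of −0.63 and −0.83, next to 30.6% and 32.8%. Podoplanin sorting gave both directions, with 4 higher and 5 lower in X2-PDPN against X2, next to 28.2% and 28.5% of all genes, and 3 higher and 4 lower in CCR7-PDPN against CCR7, next to 20.9% and 20.7%. Ccn1, a matricellular protein, fell from 177 TPM in X2 to 96.5 TPM in CCR7 and 48.4 TPM in CCR7-PDPN of batch 1, and from 174 TPM in X2 to 94.8 TPM in X2-PDPN and 47.4 TPM in CCR7-PDPN of batch 2. Its relative Ccn2 had a log2 fold change of −1.19 in CCR7-PDPN against CCR7 and −0.97 in X2-PDPN against X2. Egr1, an immediate-early transcription factor, was instead highest in X2-PDPN, at 4.70 TPM against 1.45 TPM in X2 (log2 fold change 1.69 ± 0.13 SE, adjusted p = 4.67e-15, edgeR). It also rose from CCR7 to CCR7-PDPN (log2 fold change 0.90 ± 0.16 SE, adjusted p = 0.000145, edgeR), and in CCR7-PDPN against X2 its adjusted p was 0.302 in batch 1 and 0.193 in batch 2 (edgeR). Fosb had a log2 fold change of 0.43 in CCR7-PDPN against CCR7.

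The promoters of the contractile genes were searched for the CArG box. Windows of 250 bases before the start were taken from RefSeq on GRCm38.p6, where 8 of the 10 genes had one, Tagln and Actg2 being the others. The box, a pair of C, 6 bases that are A or T and a pair of G, was present in 2 of the 8 genes, Myl9 and Cnn2, and in 1.62% of 27025 genes. Since it reads as a box on either strand, 1 search covered both. A second search, added after that result was seen, let 1 of the 6 middle bases be C or G and found Acta2 as well, or 3 of the 8 genes, against 9.78% of all genes. Windows with at least 2 such boxes were found for 2 of the 8, Acta2 and Myl9, and for 0.759% of all genes. The boxes are in capitals in these stretches of 30 bases, read 5′ to 3′ on the strand of the gene, at chr2:156775293-156775322 and chr2:156775355-156775384 for Myl9, chr10:79988534-79988563 for Cnn2, and chr19:34255438-34255467 and chr19:34255388-34255417 on the minus strand for Acta2.
Myl9 first: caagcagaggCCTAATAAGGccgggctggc
Myl9 second: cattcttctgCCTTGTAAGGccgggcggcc
Cnn2: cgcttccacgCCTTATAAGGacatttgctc
Acta2 first: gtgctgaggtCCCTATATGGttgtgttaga
Acta2 second: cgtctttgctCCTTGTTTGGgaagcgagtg
The boxes began 161 and 99 bases before the RefSeq start of Myl9, 56 before that of Cnn2, and 84 and 34 before that of Acta2. These starts differ from the ends of the Ensembl genes given above, and the Acta2 boxes lie inside the Ensembl gene. A match of letters describes the window alone, and genes with a box moved in different directions in X2-PDPN, with Myl9 and Acta2 higher and Cnn2 lower.

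Stretches of the read length were compared between the transcripts of the 10 genes and those of other genes. Of all stretches of 75 bases, the read length, 0 were shared with another gene for 9 of the 10, and Myh9 shared 48 of 13157, or 0.365%, with Myh10. Tagln overlaps Pcsk7 on the opposite strand, which had at most 517 counts in a library of batch 1, and since the strand setting of counting is not given, the few Tagln counts cannot be assigned to it with certainty.

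Markers of smooth muscle and of other cell types were read in the same libraries to set the label beside the data. Genes not listed for batch 2 have no value in X2-PDPN, which was sequenced in that batch alone. Of 8 smooth muscle markers, of which 5 were listed for batch 2, 4 reached 1 TPM in every group, namely Smtn, Des, Acta2 and Actg2, and Smtn was the most abundant. Their summed level was 259.9 TPM in X2, 263 TPM in CCR7 and 352 TPM in CCR7-PDPN of batch 1, and 252 TPM in X2, 315 TPM in X2-PDPN and 337 TPM in CCR7-PDPN of batch 2. Most of each sum was Smtn, at 190 TPM in X2, 204 TPM in CCR7 and 314 TPM in CCR7-PDPN of batch 1. In batch 2 Smtn was at 185 TPM in X2, 179.6 TPM in X2-PDPN and 299 TPM in CCR7-PDPN. Acta2 did not follow these sums and was lowest in CCR7-PDPN. Lmod1, the remaining smooth muscle marker listed for batch 2, stayed under 1 TPM, with at most 10 counts in a library of batch 1. In batch 2 Lmod1 was at 0.285 TPM in X2, 0.414 TPM in X2-PDPN and 0.0909 TPM in CCR7-PDPN. Its lowest X2-PDPN library (0.314 TPM) lay just above its highest X2 library (0.311 TPM). In batch 1 the smooth muscle markers Myh11, Tagln and Cnn1 were near 0, with at most 9, 11 and 4 counts in a library. None of these 3 was listed for batch 2. Of 7 myoepithelial markers 1 reached 1 TPM, which was Acta2 itself, and Krt5, Krt14, Krt17 and Trp63 had at most 3 counts in batch 1 and were not listed for batch 2. Of 7 pericyte markers 2 reached 1 TPM, Pdgfrb and Mcam. Pdgfrb was the most abundant, at 46.4 TPM in X2 of batch 2 and 38.0 TPM in X2-PDPN. Mcam and Cspg4, also listed for batch 2, were instead higher in X2-PDPN than in X2, without overlap between libraries. Mcam was at 3.96 TPM in X2 and 6.77 TPM in X2-PDPN, and Cspg4 at 0.306 TPM and 0.718 TPM. Rgs5 and Notch3 had at most 1 count in batch 1 and were not listed for batch 2. Of 7 fibroblast markers Pdgfra was the most abundant, at 59.7 TPM in X2 of batch 2 and 67.5 TPM in X2-PDPN, and in batch 1 Lum and Thy1 had 0 counts and Dcn at most 3, none of them being listed for batch 2. The summed fibroblast markers were 60.9 TPM in X2 and 70.6 TPM in X2-PDPN of batch 2, nearly all of it Pdgfra. Col1a1, the other fibroblast marker listed for batch 2, was at 1.19 ± 0.187 TPM in X2 and 3.08 ± 0.387 TPM in X2-PDPN, without overlap between libraries. The part of these markers in the higher Acta2 and Actg2 of X2-PDPN was not tested.

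Other cell types were represented by single genes. Of 7 luminal markers 1 reached 1 TPM, Krt8, and the summed level was 425 TPM in X2, 531 TPM in X2-PDPN and 555 TPM in CCR7-PDPN of batch 2, while Epcam had at most 2 counts and Krt18 at most 9 in a library of batch 1. Of 10 markers of skeletal and cardiac muscle 1 reached 1 TPM, Tnni3, with a summed level of 4.96 TPM in X2 and 6.71 TPM in X2-PDPN, and Myod1, Myog and Myh1 had 0 counts in batch 1. Of 6 leucocyte markers 1 reached 1 TPM, Cd68, with a summed level of 136 TPM in X2, 63.0 TPM in X2-PDPN and 26.0 TPM in CCR7-PDPN of batch 2, and Ptprc had at most 4 counts in batch 1. The markers given as at or near 0 were not listed for batch 2. The endothelial markers, led by Lyve1, summed to 1.28 TPM or less in each group, and the adipocyte markers, led by Fabp4, to 4.46 TPM or less.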

How the data were processed

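The authors deposited raw counts per Ensembl gene for both batches, made from single-end reads of stranded libraries on GRCm38 (mm10), without normalization or pooling. The aligner and the strand setting of counting are not given in the sources used here. The 10 genes were found by symbol and matched by identifier, and TPM used the deposited exonic lengths over the 13915 genes in both tables. Within each batch, edgeR 4.0.16 in R 4.3.3 was fitted over 12 libraries with TMM factors, filterByExpr and robust quasi-likelihood F-tests, with Benjamini-Hochberg adjustment over all genes tested. Each SE was obtained by dividing the size of the fold change on the log2 scale by the root of its F value. Genes were called at an adjusted p under 0.05, alone or with an absolute log2 fold change above 1. The difference between the podoplanin differences was fitted over 6 groups and 24 libraries, so its sides come from different batches. Log2 CPM used a prior count of 2.

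The genes named were the 10 chosen by symbol and, from 6 lists, the 3 with the largest change past the threshold and a mean log2 CPM of at least 1 in each podoplanin comparison, with Pdpn and Ccr7 as checks of the labels, and relatives and markers where shares or sums of a list are given. The results of 1 of these lists are not reported here. Members, lists and tests were chosen with earlier results of these data known. The alternatives were upper-quartile or RLE factors, DESeq2 1.42.0, no filter, a filter of at least 50 counts in 4 libraries, fits over the compared groups alone or over all 24 libraries, replicate number as a block, each library left out in turn, the median of the neighbours within 5 Mb subtracted, and CPM for TPM. Annotation came from GENCODE M21 and promoters from RefSeq. The scripts were tested on simulated data. Tables were made with pandas 2.3.3, numpy 2.4.6 and scipy 1.17.1 in Python 3.11.15, and figures with matplotlib 3.10.9.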

Additional observations from a re-analysis of the deposited data

Results flagged for a closer look

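The change with podoplanin sorting differed between the receptor and the control background for 7 of the 8 genes tested, as a test of the difference between the differences on the log2 scale (edgeR), next to 20.5% of all genes below 0 and 20.3% above. The value was −1.87 for Acta2 (adjusted p = 5.54e-22, edgeR), −1.35 for Actg2 (adjusted p = 1.36e-05, edgeR), −2.35 for Myl9 (adjusted p = 1.08e-05, edgeR) and −0.26 for Myh9 (adjusted p = 0.00157, edgeR). It was −0.21 for Tpm1 (adjusted p = 0.00092, edgeR), 0.27 for Cnn2 (adjusted p = 2.45e-06, edgeR) and 0.28 for Tpm2 (adjusted p = 0.00371, edgeR). With the median of the neighbours within 5 Mb subtracted, the value was −0.06 for Tpm1 and −0.07 for Myh9. For Acta2 the directions were opposite, with a fall on the receptor background and a rise on the control background, and for Actg2 both were rises. Each difference was taken inside its own batch. CCR7-PDPN and X2 were sequenced in both batches, and their log2 fold change for Acta2 was −1.25 in batch 1 and −1.20 in batch 2.

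A few libraries lay far from the other libraries of their group, in log2 CPM. Myl9 was at −0.95 in CCR7 replicate 4, where the median of the others was −0.14. Tpm1 was at 8.74 in CCR7 replicate 1, where the others had a median of 8.54, and at 8.77 in CCR7-PDPN replicate 4 of batch 1, where the others had 8.63. Tpm2 was at 6.32 in X2 replicate 4 of batch 1, where the others had 6.39. These are 4 libraries in 48 groups searched, and chance alone gives about 1 in 20 groups.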

How the results depend on the processing

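Under the alternatives 295 recomputed counts past the fold threshold held and 6 moved, and among values for single genes 1200 held, 16 moved, 16 turned direction, 11 gained a call and 3 lost one. With at least 50 counts required in at least 4 libraries, the number higher past the fold threshold went from 1 to 0 in CCR7-PDPN against CCR7 and from 2 to 1 in X2-PDPN against X2, and the number lower in CCR7 against X2 went from 1 to 0, since that filter removes genes with few counts. With single libraries left out, the number lower past that threshold in CCR7-PDPN against CCR7 ran from 0 to 2, and at an adjusted p under 0.05 alone (edgeR) the number higher there ran from 2 to 4 and the number lower from 2 to 3. Subtracting the median of neighbours in a 10 Mb window turned Tpm1 to −0.21 in CCR7 against X2, −0.15 in CCR7-PDPN against X2 of batch 1 and −0.18 in batch 2, since the neighbours were higher than Tpm1. Upper-quartile factors turned Tpm1 to −0.010 in CCR7-PDPN against X2-PDPN, and the cause was not tested. Single libraries left out gave log2 fold changes that crossed 0 for Cnn2 (−0.039 to 0.0025) and Myh9 (−0.093 to 0.0094) in CCR7 against X2, Actg2 in CCR7-PDPN against X2 (−0.029 to 0.055 in batch 1, −0.068 to 0.092 in batch 2), Myl9 in CCR7-PDPN against X2 of batch 2 (−0.26 to 0.30) and Tpm1 in CCR7-PDPN against X2-PDPN (−0.0026 to 0.020). Each of these values that crossed 0 with a library left out had an adjusted p above 0.05 with all libraries in (edgeR). The call for Myh9 in CCR7-PDPN against X2 of batch 1 was gained with no filter (adjusted p = 0.00843, edgeR) and with the compared groups alone (0.000533), and in batch 2 it was lost with all 24 libraries in 1 fit (0.0839). Myl9 in CCR7-PDPN against CCR7 passed with no filter (0.0495) and with all 24 libraries (0.0372). Replicates with the same number correlated between −0.12 and 0.05 in batch 1 and between −0.04 and 0.11 in batch 2, and a block for the number changed no call. The order of the 3 groups was the same in CPM as in TPM for 16 of 16 genes and batches. Depth limits Myl9, at 5 to 66 counts per library, and Tagln and Cnn1 below it.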

Other observations

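Genes for actin crosslinking and focal adhesion proteins, which anchor contractile filaments to the membrane, were called in both directions, at shares partly no larger than over all genes. Of 23 listed genes, 22 were tested, of which CCR7-PDPN cells had 8 above CCR7 and 4 below (adjusted p under 0.05, edgeR), with a median log2 fold change of 0.05, next to 20.9% and 20.7% of all genes. In X2-PDPN against X2, 4 were higher and 6 lower, with a median of 0.0027, next to 28.2% and 28.5%. In CCR7-PDPN against X2-PDPN, 10 were higher and 9 lower, with a median of 0.04, next to 31.2% and 32%. The difference between the podoplanin differences was above 0 for 12 and below 0 for 6. Its median was 0.17, and 20.3% of all genes were above 0 and 20.5% below. Actn1, an alpha-actinin, was at 429.5 TPM in CCR7 and 586 TPM in CCR7-PDPN (log2 fold change 0.47 ± 0.03 SE, adjusted p = 1.21e-11, edgeR). In the same comparison the actin crosslinkers Flna and Actn4 had log2 fold changes of −0.32 and 0.24. Zyx, the focal adhesion protein zyxin, was at 187.5 TPM in X2 and 137 TPM in X2-PDPN (log2 fold change −0.46 ± 0.03 SE, adjusted p = 4.46e-12, edgeR). Lims2, an adaptor of the integrin-linked kinase complex, was at 37.9 TPM in X2 and 6.63 TPM in CCR7 (log2 fold change −2.52 ± 0.09 SE, adjusted p = 9.33e-16, edgeR), and at 38.3 TPM in X2 and 20.9 TPM in X2-PDPN of batch 2. Lpp, a relative of Zyx, had a log2 fold change of 0.38 in X2-PDPN against X2.

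Among 9151 genes, those most like Acta2 over the 24 libraries, in log2 CPM relative to X2 of the same batch, were Elfn2 (Pearson r = 0.98), Nt5e (r = 0.98) and Extl1 (r = 0.98). Those most like Tpm2 were Fkbp3 (r = 0.95), Ppia (r = 0.95) and Stmp1 (r = 0.94). Between pairs of the 8 contractile genes r ran from −0.82, for Acta2 and Tpm2, to 0.80, for Acta2 and Myh9. The libraries fall into groups of technical replicates, so these values describe group patterns.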
